A study of Mus musculus with 2 samples.

Results

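The genes described here are 8 components of the DNA methylation machinery: the methyltransferases Dnmt1, Dnmt3a and Dnmt3b, their cofactors Uhrf1 and Dnmt3l, the dioxygenases Tet1 and Tet2, and the glycosylase Tdg. They were chosen by symbol from the 55415 features of the deposited tables, and each symbol named a single feature. Single-cell transcriptomes came from a mouse embryonic stem cell (mESC) line with a nuclear H2B-mIFP label for following cells and a GFP reporter driven by MERVL, the retroviral repeat that the embryo transcribes at the 2-cell stage. The 2 libraries, 1 labelled MERVL-GFP positive and 1 MERVL-GFP negative, share both transgenes; no treatment, time, culture medium, clone or way of sorting is given. The reporter marks cells in a 2-cell-like state, in which Zscan4 family genes are also transcribed. Each group had 1 library, the batch label is the library itself, so that the groups could not be tested against each other: batch and group cannot be told apart, nor a difference weighed against replicate spread. GFP transcripts were at 205 CPM (UMIs, read as unique molecules, summed over cells and scaled to a common total) in the positive and 0.454 CPM in the negative one, and the 6 Zscan4 genes together at 322 and 0.627 CPM.

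DNA methylation in mammals sits mostly on cytosines of CG dinucleotides and is copied after each round of replication. Uhrf1 binds hemimethylated CG sites and recruits Dnmt1, the maintenance methyltransferase. Dnmt3a and Dnmt3b methylate unmodified sites de novo, and Dnmt3l is a catalytically inactive partner that stimulates them in germ cells and pluripotent cells. Tet1 and Tet2 oxidise 5-methylcytosine, and Tdg removes the most oxidised forms so that base excision repair can restore an unmodified cytosine. Cultured mESC express all of these activities, and entry into the 2-cell-like state is known to be accompanied by a fall in global methylation.

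The positive library held 4603 cells with 138364094 UMIs and the negative library 3832 cells with 156406894 UMIs. Median depth per kept cell was 29554.5 and 39099.5 UMIs, and the median mitochondrial share was 2.56% and 1.60%. Levels in CPM are given with exact 95% Poisson intervals that cover counting error only, and a gene was called higher or lower in a contrast when its ratio of CPM + 1 was at least 1.5, at 10 CPM or more in either group and 50 UMIs or more in total. All 8 pluripotency markers examined were present in both libraries, with summed levels of 14058 and 13569.7 CPM. Of them, 6 had a log2 ratio of positive over negative below 0, and the median was -0.29 against 0.14 for all tested genes. By the size rule 1 was higher and 1 lower, where 17.6% and 4.89% of all genes were. Fibroblast and trophoblast markers were at most 9.29 CPM each. Cells with at least 5 of 10000 UMIs from 12 primitive endoderm markers, called endoderm-high below, made up 11.1% of the positive library (487 cells) and 5.57% of the negative library (213 cells). Because levels of several members moved with this class, contrasts are given with and without it. A class cut from a marker sum is a range of cells and not a cell type; 1.82% and 0.549% of the cells lay at 4 or 5 marker UMIs. The libraries shared 3 barcodes.

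All 8 genes were counted in both libraries and all 8 passed the low-value filter in every contrast. Tet1 had 27199 and 55236 UMIs in the positive and negative libraries, and Tdg, the least counted, had 3957 and 5984. In single cells thinned to 10000 UMIs, Tet1 had a median of 1 UMI per positive-library cell and 3 per negative-library cell, with highest values of 14 and 18. Dnmt1 and Uhrf1 had medians of 1 in both libraries, and Dnmt3a, Dnmt3b, Dnmt3l and Tdg had medians of 0 in both. The highest Dnmt3l count in a single thinned cell was 17, and the highest Dnmt3b count was 15, both in the positive library. Counts this low do not resolve single cells, so every level below is a sum over a class of cells.

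Whether the counting used strand is not given in the sources used here. In the GENCODE annotation of GRCm38.p6, Dnmt3a, Dnmt3b, Dnmt3l, Tet2 and Tdg each overlap a gene on the opposite strand. The antisense genes Dnmt3aos and Dnmt3bos had at most 0.137 CPM in either library, so little signal was assigned to them. Levels of the genes opposite Dnmt3l (Aire), Tet2 (Gm42567) and Tdg (Glt8d2) are not given here. Whether reads of the members were lost in overlaps was not tested. Tdg has a near copy, Tdg-ps2, at 7.21 CPM in the positive and 12.5 CPM in the negative library, and the Tdg values are uncertain where reads could be split between them. Dnmt1 (ENSMUSG00000004099) lies at chr9:20907206-20959888, Uhrf1 (ENSMUSG00000001228) at chr17:56303337-56323486, Dnmt3a (ENSMUSG00000020661) at chr12:3801559-3914443 and Dnmt3b (ENSMUSG00000027478) at chr2:153649411-153687730. Dnmt3l (ENSMUSG00000000730), Tet1 (ENSMUSG00000047146) and Tdg (ENSMUSG00000034674) lie on chromosome 10 at chr10:78042287-78063622, chr10:62804570-62887469 and chr10:82629814-82650799, and Tet2 (ENSMUSG00000040943) at chr3:133463677-133545136.

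Between the libraries, Tet1 was the member that differed most. Its level was 197 CPM (194 to 199) in cells labelled positive and 353 CPM (350.2 to 356) in cells labelled negative, a ratio of 0.557 (exact conditional interval 0.549 to 0.565). Only 1.9% of the 8042 genes tested had a lower log2 ratio. Tet1 was the only member called lower, where 4.89% of all genes were, and 0 of 8 members were called higher, where 17.6% of all genes were. The members' median log2 ratio was -0.18, against 0.14 for all tested genes, but Dnmt3a, Dnmt3b and Dnmt3l lay above the middle of all genes. Scaling by TMM moved the median of all genes to -0.16 and gave 8.60% higher and 16.1% lower, and under it Tet1 was at -1.13, and Tet2 (-0.66) and Tdg (-0.69) also passed 1.5-fold.

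**Figure D1:**
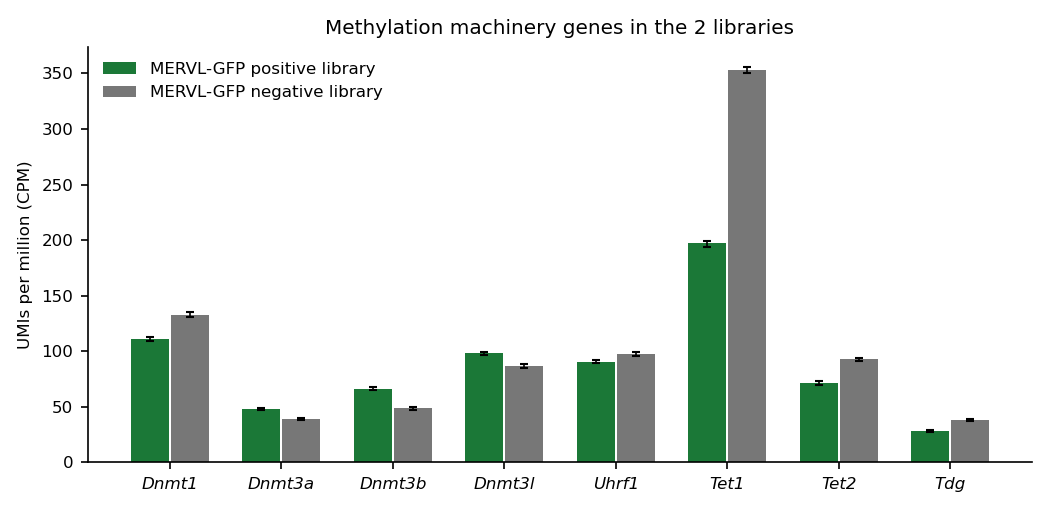
Level of each gene in the MERVL-GFP positive (green) and MERVL-GFP negative (grey) libraries, in CPM; bars are the sum over all kept cells of 1 library and error bars are 95% Poisson intervals for counting error only. Tet1 stands at 197 CPM against 353 CPM, and the other 7 genes are within 1.5-fold between the libraries.

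The maintenance pair differed little between the libraries. Dnmt1 was at 111 CPM (109 to 113) in the positive and 133 CPM (131 to 135) in the negative library, with a log2 ratio of -0.25. Uhrf1 was at 90.8 CPM (89.3 to 92.4) and 97.5 CPM (95.9 to 99.0), a log2 ratio of -0.10. That small difference was 0.01 when both libraries were weighted to the same share of each cell cycle class. Uhrf1 thus had no direction that held across these weightings, and its level in one library lay within 1.5-fold of the other under every setting tried.

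The de novo enzymes and their inactive partner Dnmt3l had ratios above 1 in CPM, all within 1.5-fold. Dnmt3a was at 48.1 CPM (47.0 to 49.3) with the reporter and 38.9 CPM (38.0 to 39.9) without it, Dnmt3b at 66.5 CPM (65.1 to 67.8) and 48.6 CPM (47.5 to 49.7), and Dnmt3l at 98.1 CPM (96.5 to 99.8) and 86.9 CPM (85.4 to 88.4). Without endoderm-high cells Dnmt3b was at 36.5 and 32.5 CPM, and Dnmt3l was lower in the positive library, at 71.3 against 77.0 CPM. Dnmt3l also had a negative log2 ratio, -0.12, under TMM. Dnmt3a was at 44.0 against 33.9 CPM without those cells, but its log2 ratio was 0.01 under TMM, where it had been 0.30.

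On the demethylation side, Tet2 was at 71.5 CPM (70.1 to 72.9) in the positive and 92.8 CPM (91.3 to 94.3) in the other library, and Tdg at 28.6 CPM (27.7 to 29.5) and 38.3 CPM (37.3 to 39.2). When only positive-library cells with 0 thinned Zscan4 UMIs were set against the negative library, the log2 ratio of Tet2 was -0.05 where it had been -0.37. That of Tet1 was -0.64 in the same cells, still past 1.5-fold, and Dnmt3b was at 0.60 and called higher. Endoderm markers were at 257 CPM in these cells against 119 CPM in the negative library, and without endoderm-high cells Dnmt3b was at 36.5 CPM against 32.5 CPM, within 1.5-fold. These cells still held Zscan4 at 31.6 CPM in their unthinned sums, against 0.627 CPM in the negative library.

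Partners of the 8 genes were described from lists of 7 roles. Between the libraries, 17.6% of all tested genes were higher and 4.89% lower, the shares against which the counts below stand. Among 7 maintenance partners, Dppa3 (also called Stella), which binds Uhrf1 and keeps it from chromatin, was at 51.3 CPM in the positive and 8.23 CPM in the negative library, a ratio of 6.23 (5.87 to 6.62). Uhrf2, the Uhrf1 paralog, was also higher (67.1 against 34.8 CPM), Cdca7, the partner of the remodeller Hells, was lower (54.9 against 96.8 CPM), and the remaining 4 were within 1.5-fold. Of 7 tested regulators of de novo methylation and heterochromatin, only Trim28, the corepressor recruited by KRAB zinc finger proteins, was called, at 766 against 389.7 CPM. Among 9 tested repair genes, the thymine glycosylase Mbd4 (30.5 against 16.5 CPM) and the stress gene Gadd45b (30.9 against 15.2 CPM) were higher, and Gadd45a (46.2 against 74.8 CPM) was lower. Neither tested oxidation partner was called: Ogt, which binds Tet proteins, was at 66.7 and 54.8 CPM, and Cxxc5 at 17.8 and 20.1 CPM.

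The methyl-CpG reader Mbd1 was higher (14.6 against 8.0 CPM), and the other 4 tested readers were within 1.5-fold. In the supply of methyl donors, the methionine synthase Mtr was higher (22.2 against 13.9 CPM) and the threonine dehydrogenase Tdh was lower (64.5 against 125 CPM), with 5 of 7 tested genes within the fold. Under TMM, the log2 ratios of Mbd4 (0.57), Mbd1 (0.53) and Mtr (0.36) were within 1.5-fold, and Nsd1, Apex1, Ung, Mbd3 and Zbtb38 were called lower. Of 8 tested germline genes known to be silenced by promoter methylation, 6 were higher and 0 lower, where 17.6% and 4.89% of all genes were, with a median log2 ratio of 1.16. Under TMM, with 8.60% of all genes higher, 5 of the 6 were still past the fold and Mael was not. Dazl, a germ cell RNA-binding protein, was at 95.7 against 15.5 CPM, the synaptonemal complex gene Sycp1 at 17.0 against 2.40 CPM and Slc25a31 at 24.7 against 7.15 CPM. Sycp3 (28.4 against 29.5 CPM) and Hormad1 (36.3 against 26.9 CPM) were within the fold. Methylation itself was not measured here.

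Within the positive library, cells were next ordered by the 6 Zscan4 family genes after thinning. The classes held 1945 cells with 0 UMIs, 1590 with 1 to 4, 618 with 5 to 19 and 249 with 20 or more, and 3.13% of cells had 15 to 24, near the upper cut. Tet1 stood at 227 CPM (223 to 231), 193 CPM (189.7 to 197), 119.7 CPM and 72.5 CPM (65.2 to 80.3) over these classes. Tet2 stood at 89.8 CPM (87.5 to 92.1), 65.8 CPM, 29.2 CPM (26.6 to 32.0) and 24.5 CPM (20.4 to 29.3). Both dioxygenases were lower in each class than in the one before, except that the intervals of Tet2 in the upper 2 classes overlap. Against cells with 0 UMIs, the highest class had ratios of 0.319 (0.287 to 0.354) for Tet1 and 0.273 (0.227 to 0.327) for Tet2.

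Tdg was level over the lower 2 classes, at 29.6 CPM in each, and stood at 24.5 CPM and 18.8 CPM (15.2 to 23.0) in the upper 2. Of the 8 members, 5 were called lower in the highest class and 0 higher, where 22.3% and 18.9% of 8521 genes were; the members' median log2 ratio was -0.73, against -0.14 for all genes. The 5 were Tet1, Tet2, Tdg, Dnmt3b and Dnmt3l. Of all tested genes, 0.6% had a lower log2 ratio than Tet2 and 1.0% a lower one than Tet1.

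Dnmt3b was at 73.9, 66.4, 51.3 and 28.9 CPM over the 4 classes and Dnmt3l at 104, 97.6, 90.4 and 58.5 CPM. The endoderm markers moved with them: their summed level was 257 CPM in cells with 0 Zscan4 UMIs and 93.2 CPM in the highest class. Without endoderm-high cells, Dnmt3b was at 27.4 against 36.5 CPM and Dnmt3l at 52.9 against 74.6 CPM, neither past 1.5-fold, and 3 members (Tet1, Tet2 and Tdg) were lower, where 21.9% of all genes were. The log2 ratios of Tet1 and Tet2 were then -1.73 and -1.86.

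The maintenance pair and Dnmt3a were within 1.5-fold across Zscan4 classes. Dnmt1 stood at 116, 113, 99.9 and 85.0 CPM. Uhrf1 stood at 92.8, 90.9, 85.3 and 84.6 CPM, and the interval of its ratio between the highest class and 0, 0.824 to 1.01, included 1. Dnmt3a stood at 49.2, 47.3, 49.9 and 40.3 CPM.

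Depth and RNA quality moved with the Zscan4 classes: the median cell had 32538 UMIs with 0 Zscan4 UMIs and 18843 in the highest class, and the mitochondrial share was 2.37% and 3.32%. The pluripotency markers did as well, with all 8 lower in the highest class and a summed level of 7036 against 15210.0 CPM. Of 7 fibroblast markers, Thy1 was called higher (14.6 against 7.23 CPM) and the list summed to 19.6 against 10.4 CPM, with Lum, Dcn and Postn at or near 0. The part of these in the members' differences was not tested. In cells of 15000 to 30000 UMIs only, chosen after the data were seen, the log2 ratio was -1.53 for Tet1 and -1.63 for Tet2; that of Tdg, -0.50, was no longer past the fold, that of Dnmt1 was -0.15 and that of Uhrf1 was 0.07.

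**Figure D2:**
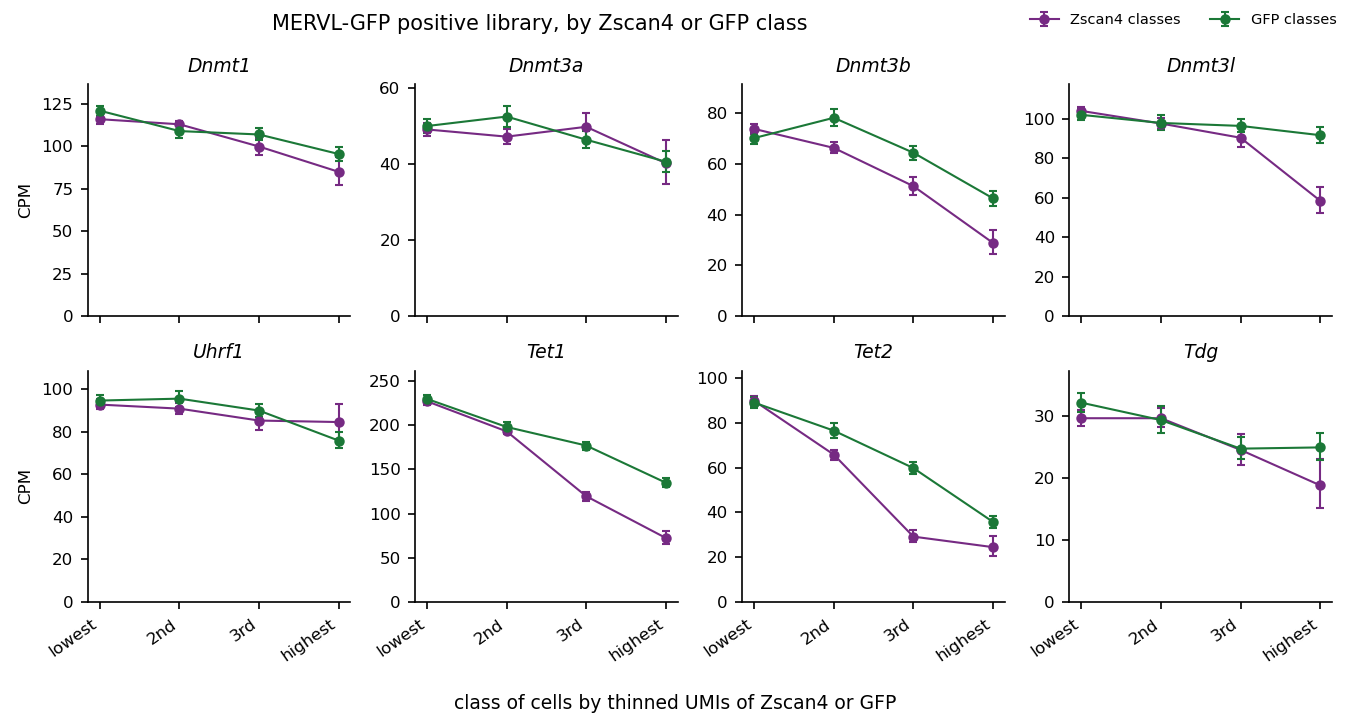
Level of each gene (CPM, 95% Poisson intervals) in the MERVL-GFP positive library by class of thinned Zscan4 UMIs (purple: 0, 1 to 4, 5 to 19, 20 or more) and of thinned GFP UMIs (green: 0, 1, 2 to 4, 5 or more). Tet1 and Tet2 step down along both series, from 227 to 72.5 CPM and from 89.8 to 24.5 CPM with Zscan4, while Uhrf1 stays between 84.6 and 92.8 CPM with Zscan4.

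Maintenance partners split in the highest Zscan4 class. Dppa3 (124 against 33.4 CPM) and Uhrf2 (119.6 against 56.8 CPM) were higher, and Cdca7 (36.7 against 59.9 CPM), Cdca7l (9.58 against 15.8 CPM) and the deubiquitinase Usp7, which stabilises Uhrf1 and Dnmt1 (124 against 189 CPM), were lower. Of 8 tested de novo and heterochromatin regulators, 4 were lower and 0 higher, where 22.3% and 18.9% of all genes were. They were the H3K36 methyltransferase Nsd1 (61.3 against 156 CPM), the H3K9 methyltransferase Ehmt2 (11.8 against 28.2 CPM), the imprint-protecting zinc finger protein Zfp57 (97.6 against 194 CPM) and Prdm14 (4.19 against 10.3 CPM), which restrains de novo methylation in pluripotent cells. Tet3, the remaining dioxygenase of the family, was below the level needed for a call, at 1.80 against 6.65 CPM, and Cxxc5 was lower (ratio 0.630).

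The repair list moved in both directions. Mbd4 was at 68.1 against 22.2 CPM (ratio 3.06, 2.71 to 3.45), Gadd45b at 77.8 against 25.4 CPM and Parp1 at 1145 against 637 CPM, all higher. The uracil glycosylase Ung (26.3 against 75.3 CPM) and Gadd45a (34.5 against 54.0 CPM) were lower. Mbd4, which excises thymine and uracil from mismatches at CG sites, was thus higher in the cells in which Tdg was lower. Of 5 tested readers, Mbd1 was higher (ratio 1.93) and 4 were lower, among them Mbd2, Mbd3 and Zbtb38 at ratios from 0.592 to 0.629. In the methyl donor list only Tdh was called, at 22.0 against 76.2 CPM. Of 9 tested germline genes, Sycp3 (58.5 against 25.5 CPM) and Dazl (123 against 81.2 CPM) were higher and Hormad1 (20.8 against 39.9 CPM) was lower, shares near or below those of all genes, 18.9% and 22.3%; Dazl was not past the fold under TMM.

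The GFP transcript gave a second order of the same cells: 1691 with 0 thinned UMIs, 791 with 1, 1153 with 2 to 4 and 767 with 5 or more, with 10.7% of cells at 4 or 5. Tet2 stood at 89.0 CPM (86.6 to 91.5), 76.5 CPM, 59.8 CPM and 35.8 CPM (33.2 to 38.5) over these classes, and Tet1 at 229.7 CPM (226 to 234), 198 CPM, 177 CPM and 135 CPM (129.8 to 140.0). The intervals of neighbouring classes do not overlap for either gene. The highest class over 0 had ratios of 0.402 (0.371 to 0.434) for Tet2 and 0.587 (0.563 to 0.612) for Tet1. Of the 8 members, 3 were called lower and 0 higher, where 8.91% and 7.83% of 8216 genes were; their median log2 ratio was -0.35 against -0.12 for all genes. Median depth was 24877 UMIs in the highest class and 32371 with 0 GFP UMIs, and 5 of 8 pluripotency markers were lower (median log2 ratio -0.82); Thy1 was at 12.5 against 6.93 CPM, and the fibroblast list at 15.8 against 10.5 CPM. Their part in the members' differences was not tested.

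The member just past the fold was Dnmt3b, at 46.5 against 70.3 CPM (log2 ratio -0.59), and its call was lost under TMM and the median of ratios. It was at 31.7 against 37.2 CPM without endoderm-high cells, which is not past 1.5-fold. The remaining 5 were within the fold: Dnmt1 at 95.5 against 121 CPM, Dnmt3a at 40.7 against 50.1 CPM, Dnmt3l at 91.7 against 102 CPM, Uhrf1 at 75.9 against 94.7 CPM and Tdg at 24.9 against 32.1 CPM. Of the partners, Dppa3 (85.8 against 49.1 CPM) and Mbd4 (40.3 against 24.2 CPM) were higher, and Nsd1, Zfp57, Cxxc5, Ung, Gadd45a, Zbtb38, Hormad1 and Asz1 were lower, with no methyl donor gene called.

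Zscan4 and GFP classes overlap, so the 2 were crossed. Among cells with 0 Zscan4 UMIs, Tet2 stood at 98.1 CPM (94.9 to 101) with 0 GFP UMIs, 84.1 CPM with 1 to 4 and 57.3 CPM (50.4 to 64.9) with 5 or more (148 cells). Among cells with 0 GFP UMIs, it stood at 98.1 CPM with 0 Zscan4 UMIs, 79.9 CPM with 1 to 4 and 36.9 CPM (30.1 to 44.8) with 5 or more (106 cells). Cells with 5 or more of both had 23.8 CPM (20.4 to 27.6). Tet2 was thus lower along each marker among cells with 0 thinned UMIs of the other. These cells are not free of the other marker in their unthinned sums: along GFP their Zscan4 level was 25.2, 37.1 and 50.1 CPM, and along Zscan4 their GFP level was 27.2, 36.3 and 64.0 CPM. The part of this in the Tet2 values was not tested.

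Tet1 showed the same order with smaller steps along GFP: 243 CPM (238 to 248) with 0 thinned UMIs of either, 176 CPM (164 to 189) with 5 or more of GFP and 0 of Zscan4, 118 CPM (105 to 131) with 5 or more of Zscan4 and 0 of GFP, and 96.8 CPM (89.8 to 104) with 5 or more of both. Among cells with 0 Zscan4 UMIs only Tet2 was called lower with GFP (log2 ratio -0.77), and Tet1 was at -0.46. Uhrf1 stood at 94.2 CPM with 0 of either, 74.6 CPM (66.6 to 83.2) with 5 or more GFP and 0 Zscan4 UMIs, and 94.0 CPM (83 to 106) with 5 or more Zscan4 and 0 GFP UMIs, all within 1.5-fold. The log2 ratio of Dppa3 along GFP was -0.04 in cells with 0 Zscan4 UMIs, against 0.79 in all cells.

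**Figure D3:**
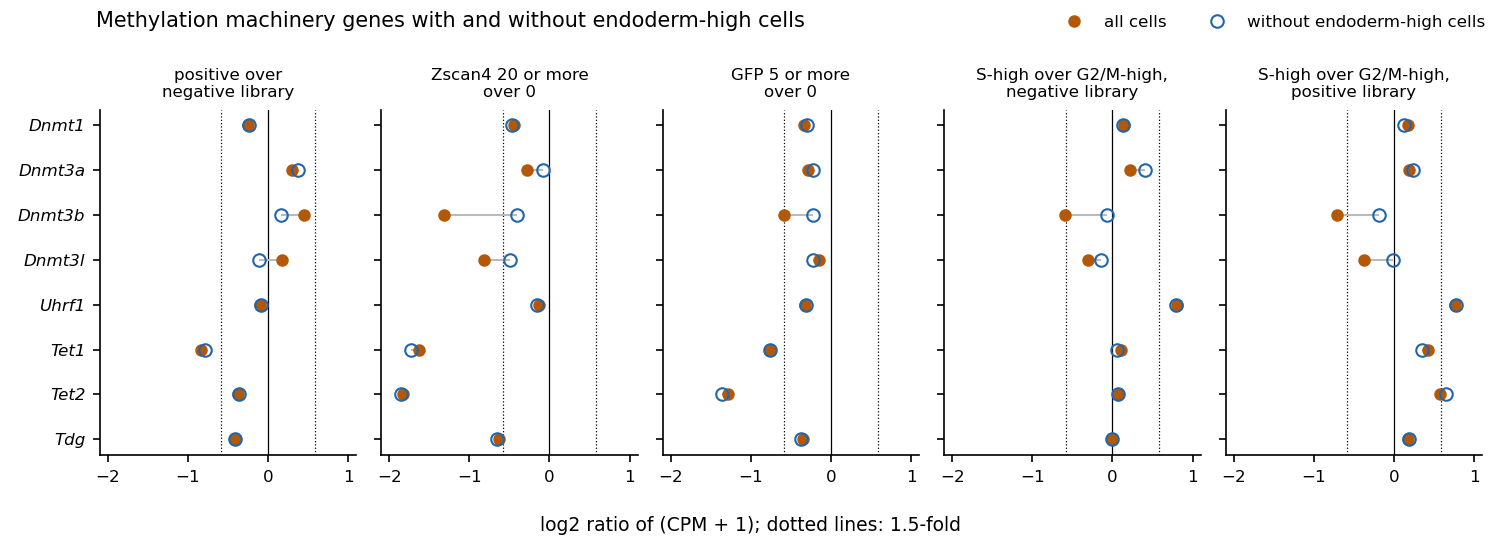
Log2 ratio of CPM + 1 for each gene in the 5 contrasts, over all cells (filled) and without endoderm-high cells (open); dotted lines mark 1.5-fold. Dnmt3b moves from -1.32 to -0.40 in the Zscan4 contrast and from -0.71 to -0.19 in the cell cycle contrast of the positive library, while Tet1 and Tet2 in the Zscan4 contrast and Uhrf1 in the cell cycle contrasts stay past the line.

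Cells were then divided by 39 S phase and 52 G2/M genes, cut at the medians over both libraries (42 and 81 thinned UMIs). Uhrf1 and the other members were not in these lists. Uhrf1 and the partners Hells, Cdca7 and Ung had been left out of the S list by choice. Cells within 2 UMIs of the cuts made up 16.7% and 6.76%. Uhrf1 was the member that followed the S genes. In the negative library it stood at 122 CPM (119 to 124) in S-high cells, 100.1 CPM in cells high for both lists, 69.2 CPM (66.5 to 72.0) in G2/M-high cells and 83.8 CPM in cells low for both. In the positive library the same classes had 125 CPM (121 to 129.9), 101 CPM, 73.4 CPM (71.0 to 75.9) and 77.3 CPM. The ratio of S-high over G2/M-high was 1.76 (1.68 to 1.84) and 1.71 (1.63 to 1.79).

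In the negative library 0.398% of 7291 genes were called higher in S-high cells and 2.32% lower, and in the positive library 1.41% and 7.65% of 8029. In each, Uhrf1 was the 1 member higher and Dnmt3b the 1 member lower, with 99.9% and 99.5% of tested genes below Uhrf1. In the negative library the Dnmt3b call was lost under TMM, the median of ratios, classes from 5000 thinned UMIs, cells of 30000 to 50000 UMIs and without endoderm-high cells. In the positive library it was lost without those cells, with classes from 5000 thinned UMIs and with cuts at the library's own medians, and Tet2 was higher as well in 9 alternatives, among them without endoderm-high cells (98.3 against 62.4 CPM). Without endoderm-high cells Uhrf1 was at 122 against 69.8 CPM in the negative and 127 against 73.6 CPM in the positive library.

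In positive-library cells with 0 Zscan4 UMIs, Uhrf1 was at 124 CPM in S-high and 70.6 CPM in G2/M-high cells. With 5 or more, it was at 95.2 CPM (87.7 to 103) in cells high for both, 79.1 CPM (73.4 to 85.1) in G2/M-high and 73.7 CPM in cells low for both; the S-high class had 36 cells and was not used. The class high for both lists was thus the highest of the 3, and the intervals of the lower 2 overlap. Dnmt1 varied less with the cycle than its partner, at 139 CPM in S-high and 125 CPM in G2/M-high cells of the negative library and 123 and 109 CPM in the positive, both within 1.5-fold. Dnmt1 was lowest in cells low for both lists, at 121 CPM (117 to 125) in the negative library, where the interval overlaps that of G2/M-high cells, and 89.1 CPM (85.8 to 92.6) in the positive.

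Because Uhrf1 followed the S phase genes, its promoter was searched for 8-letter elements of the kind bound by E2F factors, which drive S phase transcription. The window was the 250 bases before each RefSeq start (GRCm38.p6), both strands were read, and 15 windows covered the 8 genes. The element TTTCGCGC (reverse complement GCGCGAAA) occurred in 84 of 32851 windows of that length genome-wide, 0.256%. Among the members it occurred once in a Uhrf1 window and once in a Dnmt1 window, and in none of the other 6 genes. Those windows were 69.6% and 68.4% G or C, with 30 and 26 CG dinucleotides. The share in windows of like content was not computed. The Uhrf1 window, on the plus strand at chr17:56304063-56304312, holds the element and 2 copies of CCAAT, all in capitals.
Uhrf1: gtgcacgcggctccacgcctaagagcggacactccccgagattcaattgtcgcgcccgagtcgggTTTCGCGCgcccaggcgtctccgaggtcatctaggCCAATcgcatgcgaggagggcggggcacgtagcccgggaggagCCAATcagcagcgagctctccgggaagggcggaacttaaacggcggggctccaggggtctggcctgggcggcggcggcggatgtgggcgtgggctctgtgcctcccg
The element begins 185 bases before this Uhrf1 start, 1 of 2. The 30 bases around each element, with the 8 letters in capitals, compare the maintenance pair, the Dnmt1 stretch lying on the minus strand at chr9:20952824-20952853, 219 bases before 1 of its 3 RefSeq starts. Both windows lie inside the annotated gene, upstream of an alternative start. That of Dnmt1 overlaps 2 exon records and that of Uhrf1 overlaps 0; the other windows of these 2 genes lack the element.
Uhrf1 element: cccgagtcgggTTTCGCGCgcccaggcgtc
Dnmt1 element: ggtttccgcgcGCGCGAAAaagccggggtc
The element of Dnmt1 is in the reverse orientation, and its window has 3 matches to CCAAT or its complement. CCAAT or its complement ATTGG occurred in 33.8% of all windows, the second E2F-type element TTTGGCGC in 0.417% and in no member, and TTTGAA, a motif of G2/M genes, in 16%, with 1 copy each in the Dnmt3b window and another Dnmt1 window. A match describes letters only and says nothing of binding in these cells.

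Dnmt3b was lower in S-high than in G2/M-high cells, and Dnmt3l was within 1.5-fold, at 75.5 against 93.1 CPM in the negative and 81.9 against 106 CPM in the positive library. Dnmt3b was at 36.7 CPM (35.2 to 38.3) in S-high and 55.7 CPM (53.3 to 58.2) in G2/M-high cells of the negative library, and at 46.6 and 76.7 CPM in the positive. The highest levels of both genes were in cells low for both lists, with Dnmt3b at 66.4 CPM (63.8 to 69.1) in the negative and 98.6 CPM (95 to 102) in the positive library and Dnmt3l at 104 and 139 CPM. Those cells also had the highest endoderm marker levels, 245 and 462 CPM, against 49.7 and 117 CPM in S-high cells. Without endoderm-high cells, Dnmt3b was at 32.2 against 33.9 CPM in the negative library (ratio interval 0.882 to 1.02) and 33.1 against 37.8 CPM in the positive. Dnmt3l was at 73.4 against 81.0 CPM and 71.2 against 71.5 CPM.

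The dioxygenases and Tdg differed little between S-high and G2/M-high cells of the negative library. Tet1 was at 369.5 against 342 CPM, Tet2 at 96.8 against 92.2 CPM and Tdg at 38.3 against 38.4 CPM, S-high against G2/M-high. The other classes lay further apart for Tet1, at 393 CPM (385 to 401) in cells high for both lists and 312 CPM (306 to 317) in cells low for both, and for Tdg, at 43.4 and 34.8 CPM. In the positive library Tet2 was at 97.4 CPM (93.5 to 101) against 64.7 CPM (62.4 to 67.1), a ratio of 1.51 that is within 1.5-fold after 1 is added, and Tet1 was at 245 against 181 CPM. Zscan4 moved with these classes, at 95.7 CPM in S-high and 411 CPM in G2/M-high cells. In cells with 0 Zscan4 UMIs the log2 ratio of Tet2 was 0.33 where it had been 0.58. Within the cell cycle classes, cells with 5 or more Zscan4 UMIs had Tet1 at 114, 113 and 93.0 CPM in the classes high for both, G2/M-high and low for both, where cells with 0 thinned Zscan4 UMIs had 249, 212 and 189 CPM. Tet2 was at 33.0, 27.6 and 23.4 CPM in the former and 87.4, 83.9 and 82.4 CPM in the latter.

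**Figure D4:**
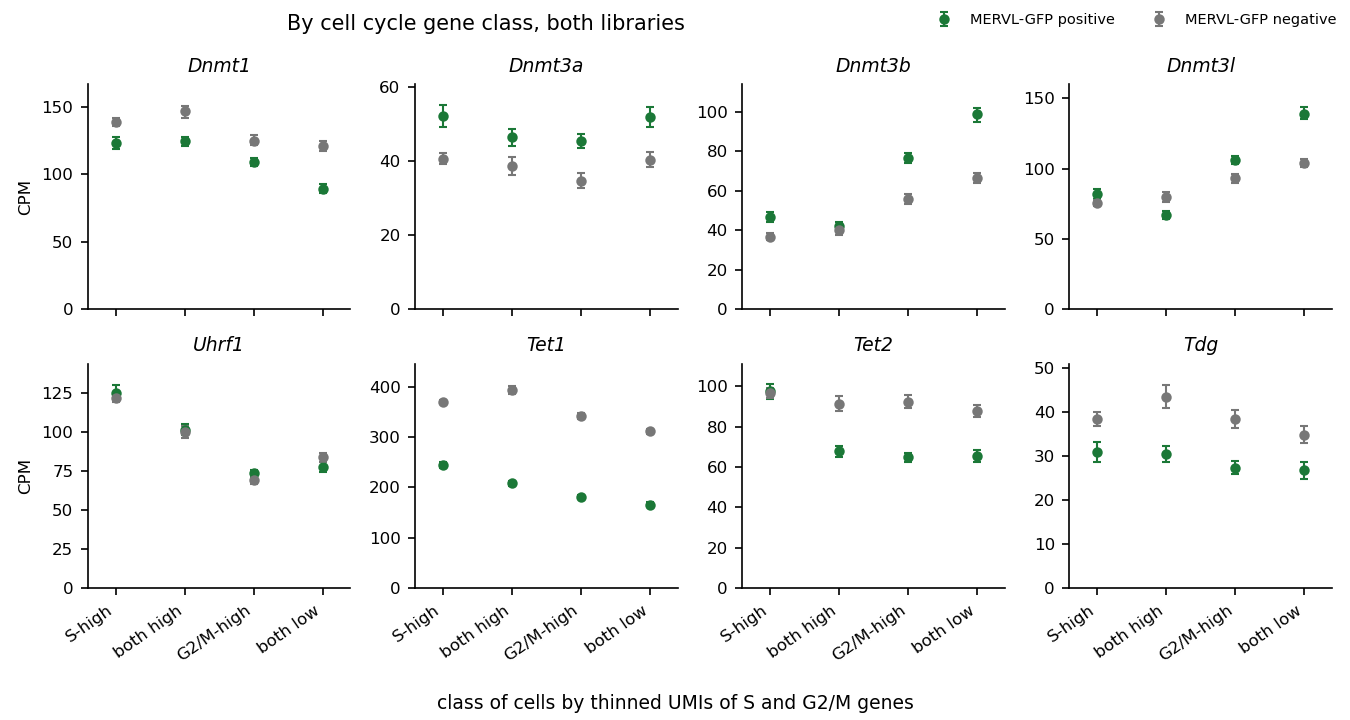
Level of each gene (CPM, 95% Poisson intervals) by cell cycle gene class in the MERVL-GFP positive (green) and negative (grey) libraries. Uhrf1 is highest in S-high cells of both libraries (125 and 122 CPM), Dnmt3b and Dnmt3l in cells low for both lists, and Tet1 differs between the libraries in every class.

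Of the partners, Ung, an S phase gene, was higher in S-high cells of both libraries (115 against 62.7 CPM and 103 against 45.7 CPM), and Dppa3 was lower in both (5.42 against 11.1 CPM and 22.8 against 82.1 CPM). Hells, a chromatin remodeller, and Lig1, the ligase of the replication fork, were within 1.5-fold in both, Hells at 413 against 324 CPM and 399 against 303 CPM, and Lig1 at 179 against 151 CPM and 199 against 155 CPM. Zfp57 and Tdh were higher and Gadd45g lower in the positive library, where the size rule called none of them in the negative library; the difference between libraries was not tested. No oxidation, reader or germline gene was called in either library.

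The endoderm-high cells were described last, as a contrast added after the data were seen. Dnmt3b was at 308 CPM (299 to 317) in the 487 endoderm-high cells of the positive library, against 28.3 CPM (27.1 to 29.5) in its 2389 cells with no marker UMI. In the negative library it was at 312 CPM (301 to 324) in 213 cells and 30.4 CPM (29.4 to 31.4) in 2802. The ratios were 10.9 (10.4 to 11.5) and 10.3 (9.78 to 10.8). Dnmt3b reached the same range in both libraries: over 4 classes of marker UMIs (0, 1 to 4, 5 to 19, 20 or more) it stood at 28.3, 50.2, 288 and 350.2 CPM in the positive and 30.4, 40.1, 307 and 326 CPM in the negative library. The step lay between 1 to 4 and 5 to 19 UMIs in both.

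Dnmt3l followed, at 313 against 62.6 CPM in the positive library (ratio 5.01, 4.81 to 5.21) and 249.9 against 74.4 CPM in the negative (3.36, 3.21 to 3.52). Dnmt3a was at 82.4 against 43.3 CPM (1.90, 1.78 to 2.03) and 122 against 33.5 CPM (3.64, 3.4 to 3.89). These 3 were the members called higher in each library, where 12.0% and 13.8% of all genes were. All 3 genes of de novo methylation were thus higher in endoderm-high cells of each library.

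Tet1 was lower in them, at 77.1 against 222 CPM (ratio 0.347, 0.327 to 0.369) in the positive and 147 against 365 CPM (0.402, 0.380 to 0.425) in the negative library, where 13.0% and 8.34% of genes were called lower. In the class with 20 or more marker UMIs Tet1 stood at 67.8 CPM (60.8 to 75.5) and 92.6 CPM (80.5 to 106), so that the 2 libraries were nearer to each other than in cells with no marker, at 222 and 365 CPM. Tet2 was not lower: it stood at 72.0 against 75.2 CPM in the positive library (ratio interval 0.896 to 1.02) and 103 against 92.0 CPM in the negative, and Tdg at 28.3 against 28.4 CPM and 35.4 against 38.3 CPM. Tet1 and Tet2 were lower together in Zscan4-high cells, whereas of this pair only Tet1 was called in endoderm-high cells; the difference was not tested.

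Dnmt1 was at 83.9 against 116 CPM in the positive and 88.6 against 136 CPM in the negative library, past 1.5-fold only in the negative (ratio 0.653), and Uhrf1 at 78.7 against 93.6 CPM and 75.9 against 98.5 CPM. Fewer S phase UMIs went with this: the summed S level was 3081 against 4297 CPM and 3360.1 against 4463 CPM, and its part in the Dnmt1 and Uhrf1 values was not tested. The pluripotency markers also moved with the class, with 5 of 8 lower in each library and summed levels of 10762 against 14723 CPM and 10461 against 13849 CPM; their part in the Tet1 values was not tested. Median depth was close, at 29735 against 31094 UMIs in the positive and 40225 against 39246.5 UMIs in the negative library. Among partners, Hells and Cdca7 were lower in both libraries, Cdca7 at 20.3 against 61.3 CPM and 32.7 against 101 CPM. Zfp57, Trim28, Ung and Tdh were lower in both, and Ehmt2 and Gadd45g higher in both.

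**Figure D5:**
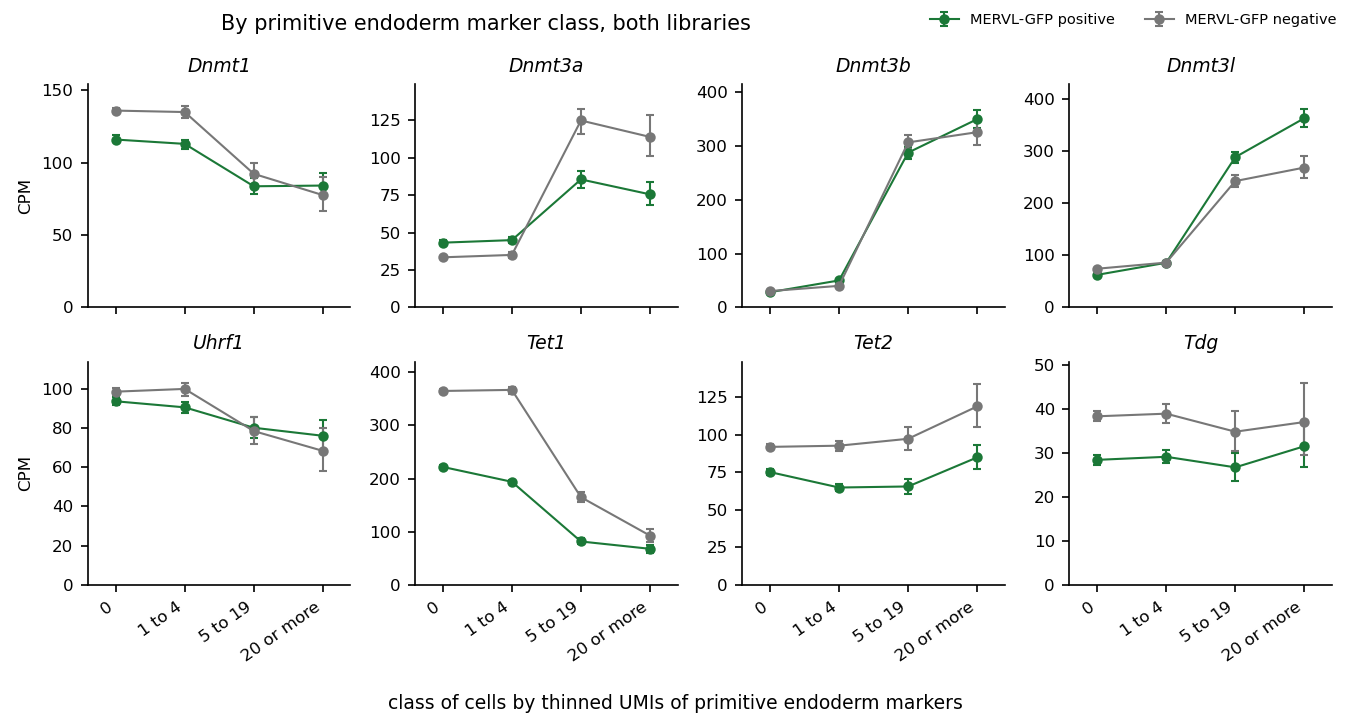
Level of each gene (CPM, 95% Poisson intervals) by class of primitive endoderm marker UMIs in the MERVL-GFP positive (green) and negative (grey) libraries. Dnmt3b steps from 50.2 to 288 CPM and from 40.1 to 307 CPM between 1 to 4 and 5 to 19 marker UMIs, and Tet1 from 194 to 81.6 CPM and from 367 to 165 CPM.

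Levels were last compared over 18 classes formed by library, Zscan4 class and cell cycle class, each of at least 50 cells, and all sharing 2 libraries and overlapping depth. Pearson's r of log2 levels was 0.948 between Dnmt3b and Dnmt3l, 0.905 between Tet1 and Tet2, 0.924 between Tet1 and Tdg, 0.864 between Dnmt1 and Tdg and 0.599 between Dnmt1 and Uhrf1. Dnmt3a was not above 0.392 with any other member. Among 7497 genes, those most like Uhrf1 included Eif4e2 (0.913) and the replication licensing factor Cdc6 (0.911). Those most like Tet2 were Tcl1 (0.985), the pluripotency factor Tfcp2l1 (0.981) and Vta1 (0.976), and those most like Tet1 were Ppih (0.995), Platr10 (0.995) and Sall1 (0.992). Dnmt3b was nearest to Vamp8 (0.963), Dnmt3l and Ssr4 (0.946), and Dnmt3l to Ssr4 (0.976), Shkbp1 (0.972) and 2200002D01Rik (0.966). Dnmt1 was nearest to Ttf2 (0.963), Jmjd1c (0.962) and Rcc2 (0.957), Tdg to Nr2f6 (0.960), Efcab2 (0.957) and Spred1 (0.955), and Dnmt3a to Actr1b (0.852), Cops6 (0.841) and Htatsf1 (0.832). These values describe the 18 classes and carry no test.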

How the data were processed

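The authors deposited 1 matrix of counts (whole-number counts per gene and cell barcode of 16 bases) for each of 2 libraries. The genome build mm10 and the tools FastQC 0.11.2, Trim Galore 0.6.4 and STAR 2.7.6a are named in the submitters' processing notes. How molecules were counted, the annotation, strand and cell calling are not given in the sources used here, and the extraction text per the labels' protocols describes a bulk-type kit; the counts were read as UMIs.

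Cells with fewer than 1000 UMIs, fewer than 500 genes or over 20% mitochondrial UMIs were removed (7 positive cells, 0 negative). Each cell of at least 10000 UMIs was thinned to 10000 to set its classes; 194 positive and 8 negative cells were shallower and entered the library contrast only. UMIs were then summed, unthinned, over the cells of a class. Ratios used CPM with a pseudocount of 1, and the intervals are exact Poisson and exact conditional binomial at 95%, for counting error only. No doublet caller was run, so doublets remain; an alternative dropped those with over 2 times the median UMIs of their library. No p-value was computed, since each group is 1 library, and cells of a library are not replicates. The code was tested on simulated data with known ratios. Named genes were the 8 members, in each role list those past the 1.5-fold rule or else the largest ratios, and for each member the 3 genes of highest correlation; a few further genes (Hells, Lig1, Ogt, Tet3, Sycp3, Hormad1) were named after their values were seen. Some genes that the rule selects are not reported here. The features held 901 repeated symbols, none of them a member.

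Members and lists were chosen with earlier results of these data known. The endoderm contrasts, depth windows, shared-barcode removal and the Zscan4 contrast in cells with 0 GFP UMIs were chosen after seeing the data. Gene positions and promoter sequences are from RefSeq, and overlapping genes and exon records from the GENCODE annotation, all on GRCm38.p6. The tools were Python 3.11.15 with pandas 2.3.3, scipy 1.17.1 and numpy 2.4.6, and R 4.3.3, with edgeR 4.0.16 for TMM factors as an alternative scaling only.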

Additional observations from a re-analysis of the deposited data

Results flagged for a closer look

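Among the members and the partners outside the germline list, 2 repair genes had ratios on opposite sides of 1 in the cell cycle contrasts of the libraries, with both counting intervals clear of 1. Mbd4 had a log2 ratio of S-high over G2/M-high cells of -0.34 in the positive and 0.20 in the negative library, and Gadd45a of 0.19 and -0.27. All 4 values are within 1.5-fold, and the difference between the libraries was not tested, since each is 1 library.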

How the results depend on the processing

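No paired analysis was possible because the design holds 1 library a group, which also leaves no replicate to drop. The following medians are the members' median log2 ratios, and the counts are of the 8 members past the fold. The share of all genes was computed for the main setting, TMM, the median of ratios, 2-fold and removal of endoderm-high cells only. Counts under other settings have no such share to be set against. Between libraries (median -0.18, 1 lower) the median was -0.47 with 3 lower under TMM and -0.47 with 3 lower under the median of ratios, -0.22 with ribosomal protein and mitochondrial genes kept out of the total, -0.24 with cells weighted equally, -0.23 from thinned UMIs and -0.12 at equal cell cycle shares. With positive cells of 0 Zscan4 UMIs it was -0.06 with 1 higher. At 2-fold there were 0 lower, where 0.995% of all genes were. Under the median of ratios 8.62% of all genes were higher and 16% lower, close to TMM. In the Zscan4 contrast (5 lower) there were 3 lower at 2-fold (7.87% of all genes), 4 from thinned UMIs, 4 at 15000 to 30000 UMIs, 3 without endoderm-high cells (21.9% of all genes, median -0.48), 3 for 5 or more Zscan4 UMIs (median -0.33), 2 for other 2-cell genes in place of Zscan4 (median -0.43) and 2 for 5 or more Zscan4 UMIs in cells with 0 GFP UMIs (median -0.31), where the ratio of Cdca7l was reversed to 0.12 on the log2 scale. In the GFP contrast (3 lower) the median was -0.24 under TMM and -0.25 under the median of ratios. For 1 or more GFP UMIs it was -0.16, with 0 lower. Under both scalings 2 were lower, Dnmt3b not among them, where 5.48% (TMM) and 5.63% (median of ratios) of all genes were. Likewise 2 were lower, without Dnmt3b, with ribosomal protein and mitochondrial genes kept out of the total, with cells weighted equally and from thinned UMIs. The count was also 2, without Dnmt3b, with classes from 5000 UMIs, at 15000 to 30000 UMIs and without endoderm-high cells (8.69% of all genes). At 2-fold 1 was lower, where 1.62% of all genes were. In cells with 0 Zscan4 UMIs 1 was lower, and Dppa3 was reversed to -0.04 there. In the negative cell cycle contrast (1 higher, 1 lower) 0 were lower under TMM (median 0.16, 1.81% of all genes) and the median of ratios (median 0.18, 1.77%). Also 0 were lower without endoderm-high cells (1.81% of all genes), with classes from 5000 thinned UMIs and at 30000 to 50000 UMIs. At 2-fold 0 were higher or lower, where 0.0274% and 0.823% of all genes were. In the positive one 2 were higher, Tet2 joining Uhrf1, under TMM (1.87% of all genes), the median of ratios (2.03%) and without endoderm-high cells (1.20%). The same 2 were higher with equal weight per cell, a pseudocount of 0.1, a stricter cell filter and thinned UMIs. They were also higher without cells above 2 times the median UMIs and at 20000 to 40000 UMIs. At 2-fold 0 were higher or lower, where 0.125% and 3.67% of all genes were. Without endoderm-high cells (7.73% of all genes), with classes from 5000 thinned UMIs and with cuts at the library's own medians, 0 were lower. In the negative endoderm contrast 1 was lower at 2-fold, where 3.63% of all genes were. In the positive one 2 were higher at 2-fold, Dnmt3a not among them, where 6.07% of all genes were. The cause of these shifts was not tested. The log2 ratio of Uhrf1 was 0.68 to 0.89 over 14 alternatives of the negative and 0.67 to 0.82 over 15 of the positive cell cycle contrast, all past 1.5-fold. Tet2 stayed at -1.39 or below in 17 Zscan4 alternatives and Tet1 at -1.04 or below. Tdg, with 94 UMIs in the highest Zscan4 class, is the member whose depth limits its ratio most (0.509 to 0.779).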

Other observations

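Across endoderm marker classes, Tet2 was highest in cells with 20 or more marker UMIs. There it was at 85.0 CPM (77.1 to 93.5) in the positive and 119 CPM (105 to 134) in the negative library. In cells with 5 to 19 it was at 65.6 CPM (60.8 to 70.8) and 97.4 CPM (90.0 to 105). In marker-free cells it was at 75.2 CPM (73.3 to 77.2), an interval that overlaps that of the highest class, and 92.0 CPM (90.3 to 93.8). Tet1 was lowest in the class with 20 or more marker UMIs of both libraries. Among the germline genes, 7 of 8 tested were lower in endoderm-high than in marker-free cells of the positive library, and 2 of 5 were lower and 1 higher in the negative library, the higher one being Mael, a piRNA pathway gene (32.9 against 19.2 CPM). Of all tested genes, 13.0% were lower in the positive library, and 8.34% were lower and 13.8% higher in the negative. In the negative library, where Zscan4 and GFP were all but absent, Dppa3 was still at 11.1 CPM in G2/M-high and 5.42 CPM in S-high cells.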
